A study of Mus musculus with 7 samples.

Results

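The cells described here were second arch mesenchyme at E9.5: neural crest cells (NCCs) with Hoxa2 transcripts, no transcripts of the Hox genes of group 3 and transcripts of mesenchymal genes, which by these genes belonged to the second pharyngeal arch (PA2). They were chosen from the deposited counts of unique molecular identifiers (UMIs, 1 per captured transcript). A member had at least 1000 detected genes, at most 10% mitochondrial UMIs, at least 1 Hoxa2 UMI, 0 UMIs of Hoxa3, Hoxb3 and Hoxd3, at least 2 UMIs of Twist1, Prrx1 and Prrx2 together, and 0 UMIs of Sox10 and Foxf1. There were 686 members in the control library and 818 in the library labelled Tbx1 null, 1504 of the 20474 cell barcodes at E9.5 and of 65862 in the 7 libraries of the series. Values of the rule genes are therefore descriptions, and because every gene was measured in the same cells as the rule genes, so are all differences between members and other cells.

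NCCs leave the dorsal neural tube and fill the pharyngeal arches, where they form the skeleton, connective tissue and artery walls. Hoxa2 is the selector gene of PA2: the first arch (PA1) has no Hox expression, and the Hox genes of group 3 start in the arch behind PA2. Within an arch, the Dlx genes and Hand2 mark the proximal to distal axis, with Dlx5 and Dlx6 away from the proximal end and Hand2 distally. Tbx1 encodes a T-box transcription factor of the endoderm, ectoderm and mesoderm next to the NCCs, and its loss affects the arches.

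Both libraries were droplet single-cell RNA sequencing of pharyngeal apparatus with heart and, as the study describes, neural tube, from embryos of a mixed Swiss-Webster background, in which Wnt1-Cre, a driver of dorsal neural tube and NCCs, switched on a ROSA-EGFP reporter, so that every group carried Wnt1-Cre and the reporter and only EGFP-positive, DAPI-negative cells were sorted. The control group was Wnt1-Cre/+;ROSA-EGFPf/+. The other group is titled Tbx1 null, while its genotype field reads Wnt1-Cre/+;Tbx1+/-;ROSA-EGFPf/+ and the study's supplementary sample list gives it as Tbx1-/-. Tbx1 itself could not check the label in NCCs, with 0.913 UMIs per 1000000 UMIs (CPM) in control members and 1.06 in null members. Each library was a pool of embryos, with 1 library per genotype at E9.5, so there was no replicate, no test and no p-value. The control library was made with 10x kit v3.1 and the null library with kit v3, so genotype, kit and library cannot be told apart at E9.5. The E10.5 libraries, 2 per genotype, are used below to show how far libraries lie apart and to give, as values with no test, the same genes a day later. Their labels word the tissue as arches 2 to 6 with heart in the controls and as that below arch 1 with heart in the null libraries, while the study's methods describe removal of PA1 before dissociation.

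The E9.5 libraries held 203853100 and 234844769 UMIs in 9173 and 11301 barcodes, of which 93.9% and 93.6% met the gene and mitochondrial limits, and they shared 27 barcodes. Median depth was 24764 UMIs in control members and 22752 in null members, close to the 25110 and 22807 of all other mesenchyme, and the median percent of mitochondrial UMIs was 1.94 and 2.86. Cells with the highest doublet scores were kept, and made up 11.5% of control members and 17.5% of null members. The marker lists of blood and endothelial cells summed to at most 3.07 CPM in the members, with 7 of 8 blood genes at 0 in control members and 5 of 8 in null members, and 1 of 5 endothelial genes at 0 in control members and 0 of 5 in null members. Epithelial markers summed to 24.2 and 22.7 CPM, against 18.8 and 19.2 in mesenchyme without Hoxa2, and glial and migrating crest markers to 159 and 169 against 79.2 and 80.8.

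The members made up a similar share of the mesenchyme in both libraries. Of 5960 control cells with at least 2 Twist1, Prrx1 and Prrx2 UMIs, 1715 held Hoxa2, 1022 of those held no group 3 Hox UMI, 713 of those no Sox10 UMI, and 686 no Foxf1 UMI either. In the null library the same steps ran from 8063 to 2119, 1125, 866 and 818 cells. The members were 11.5% of control mesenchyme (95% Clopper-Pearson interval 10.7 to 12.3) and 10.1% of null mesenchyme (9.49 to 10.8). When each cell was first thinned to 10000 UMIs and the rule applied again, the shares were 10.1% and 9.41%, and at 5000 UMIs they were 6.42% and 6.59%, in the opposite order. All intervals here cover counting error only.

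The rule took in cells at the edge of detection. Hoxa2 was seen as 1 UMI in 297 control and 341 null members, as 2 UMIs in 174 and 194, and as 3 or more in 215 and 283. Mesenchyme with at least 2 UMIs of Lhx6 and Lhx8, which are best known from PA1, held a Hoxa2 UMI in 8.56% of 222 control cells (median 27080 UMIs) and 10.5% of 794 null cells (25801 UMIs). These cells give no clean background for the rule, because such cells are not free of Hoxa2 in general: at E10.5, in tissue without PA1, 92.4% and 82.1% of them held Hoxa2 in the control and 85.3% and 86.1% in the null libraries. Arid3b, which the rule did not use, was at 41.8 and 41.2 CPM in control and null members with 1 Hoxa2 UMI and at 59.5 and 54.6 CPM in those with 3 or more. Just outside the rule, cells that met every other condition but held exactly 1 group 3 Hox UMI had 33.1 and 36.4 CPM of Arid3b, and cells with only 1 mesenchymal UMI had 22.5 and 18.4. Just inside it, members with exactly 2 mesenchymal UMIs had 18.6 and 15.6 CPM of Arid3b and 262 and 187 CPM of the neural gene Sox2, so the members nearest this limit resembled those outside it.

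The 4 markers given for these cells held to different degrees. Arid3b, which encodes an ARID-domain DNA-binding protein, was at 50.0 CPM in control members (95% exact Poisson interval 46.8 to 53.4) and 47.8 CPM in null members (44.8 to 50.9). It stood at 15.2 and 15.3 CPM in Hox-negative mesenchyme (the same rule with 0 Hoxa2 UMIs), and was also lower in Hox3-positive mesenchyme (at least 1 group 3 Hox UMI), with log2 ratios of members over these cells of 1.32 and 1.09. Meis2, a homeodomain cofactor of Hox proteins, was at 295 and 292 CPM in members, 184 and 176 in Hox-negative and 269 and 243 in Hox3-positive mesenchyme, so it set the members apart from the Hox-negative cells more than from the Hox3-positive ones. Cyp26b1, an enzyme that degrades retinoic acid, was sparse, at 5.08 and 12.2 CPM, and was found in 10.5% of control and 18.3% of null members. It lay above the 0.734 and 1.19 CPM of Hox-negative mesenchyme. Against Hox3-positive mesenchyme, at 6.44 and 7.65 CPM, the libraries went opposite ways, with log2 ratios of -0.34 in the control and 0.67 in the null library.

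**Figure D1:**
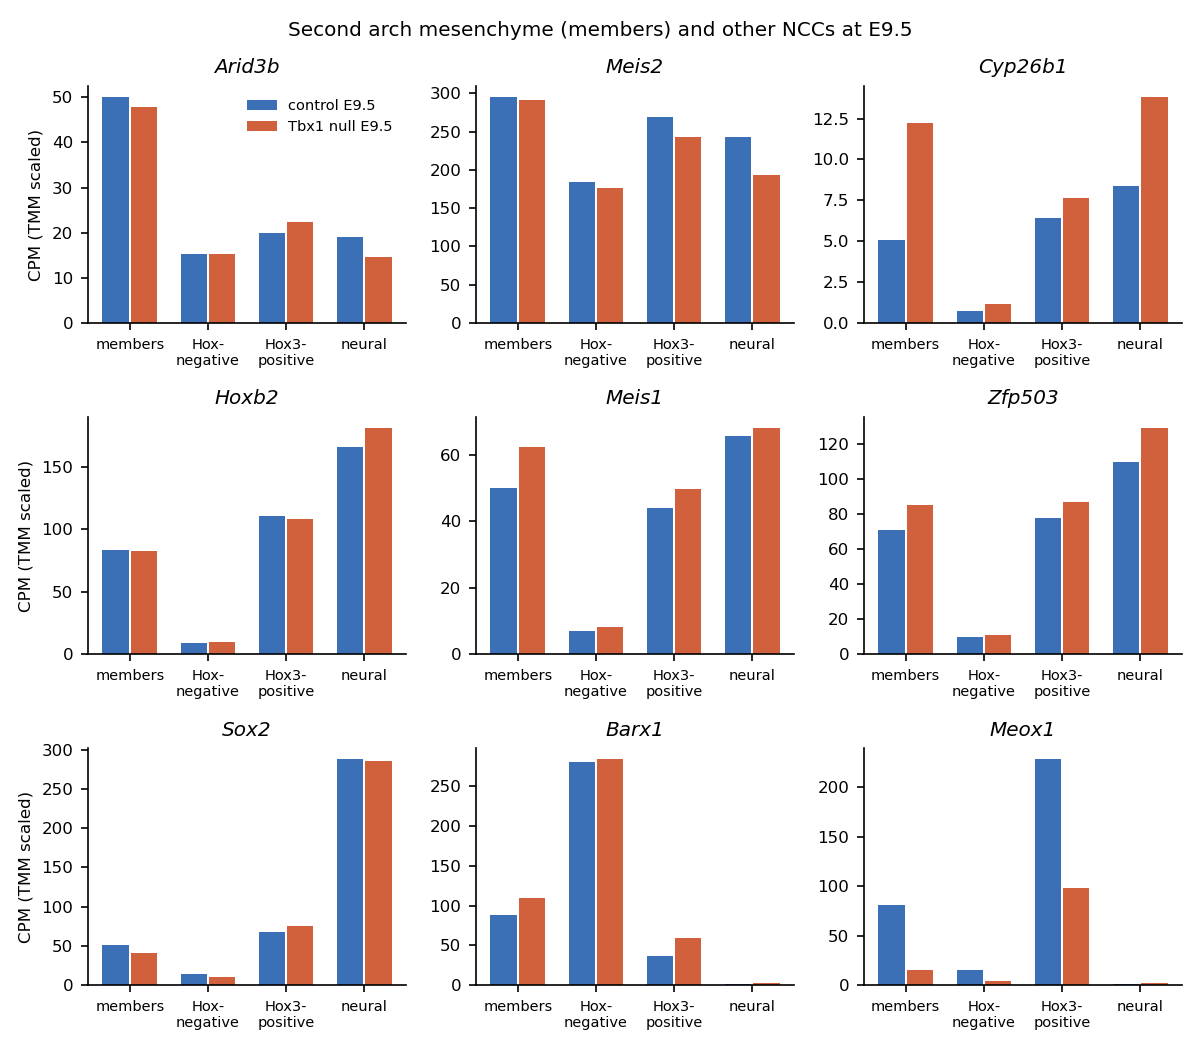
CPM (y axis, scaled with TMM factors) of 9 genes in members, Hox-negative mesenchyme, Hox3-positive mesenchyme and neural cells (x axis) of the control (blue) and Tbx1 null (orange) E9.5 libraries; each bar is 1 library's summed UMIs. Arid3b was highest in members, near 50 CPM, and Barx1 was highest in Hox-negative mesenchyme, near 280 CPM. Sox2 was highest in neural cells, which were chosen by their Sox2 UMIs and the absence of Twist1, Prrx1 and Prrx2 UMIs.

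Against Hox-negative mesenchyme, Hoxb2, some Hox cofactors and some genes of neural tissue were higher in members. With no replicate, a gene was counted as different where its CPM differed at least 1.5-fold in both libraries and reached 20 CPM in a population compared. By this count 41 of 5104 genes (0.803%) were higher in members and 22 (0.431%) were lower. The 41 include Hoxa2, whose difference the rule fixed, and 40 other genes. Among the lists, 1 of 1 tested Hox genes of groups 1 and 2, 2 of 5 Hox cofactors and 2 of 2 neural markers were higher, with 0 lower in each, beside the 0.803% of all genes higher. Hoxb2, the other group 2 Hox gene of this region, was at 83.4 and 82.7 CPM against 9.11 and 9.64. Meis1, a further Hox cofactor, was at 50.1 and 62.4 CPM against 6.79 and 8.09, and Zfp503, a zinc finger transcriptional regulator, at 70.8 and 85.0 against 9.95 and 10.8. In Hox-negative mesenchyme Hoxb2, Meis1, Zfp503 and both tested neural markers, Sox2 and Zic1, were under 20 CPM. They reached the minimum only in members, where they were higher, so the minimum itself brought them into the count. The Hox genes of groups 4 and 5 summed to 5.87 and 5.89 CPM in members, against 84.1 and 70.0 in Hox3-positive mesenchyme, so the members had little of the more caudal Hox code. All other mesenchyme together mixes the populations in front of and behind the members. It also holds the mesenchyme with Sox10 or Foxf1 UMIs, 1935 of its 5274 cells in the control and 2258 of 7245 in the null library. Against all other mesenchyme, fewer genes stood out, 23 of 5075 higher (0.453%) and 13 lower (0.256%).

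Part of what was higher in members sat in cells with Sox2, a transcription factor of neural progenitors. Sox2 was at 51.2 and 40.8 CPM in members, 14.0 and 10.4 in Hox-negative mesenchyme and 67.4 and 74.8 in Hox3-positive mesenchyme. At least 1 Sox2 UMI was in 239 of 686 control members (34.8%) and 238 of 818 null members (29.1%), and the 77 and 61 members with 5 or more held 67.0% and 58.1% of all member Sox2 UMIs. The list of 8 neural markers summed to 108 and 97.4 CPM in members, 39.2 and 33.4 in Hox-negative mesenchyme and 743 and 740 in neural cells, and none of the 8 was at 0. Neural cells here were cells without Twist1, Prrx1 and Prrx2 UMIs that were chosen by their Sox2 UMIs. Sox2 is on the list, so part of their sum was fixed by that choice. With the Sox2 cells left out, in both members and comparison cells, 22 rather than 41 genes were higher than in Hox-negative mesenchyme. Fabp7, a fatty acid binding protein of neural and glial progenitors, fell from 116 and 119 CPM to 14.6 and 20.7 and was then no longer above Hox-negative mesenchyme, Ckb, brain-type creatine kinase, from 119 and 120 to 25.1 and 29.4, and Tubb2b, a neuronal tubulin, from 128 and 143 to 38.3 and 38.0. Hoxb2 (54.4 and 58.6 CPM), Meis1 (47.7 and 58.3), Zfp503 (53.2 and 67.6) and Arid3b (54.2 and 49.5) moved less. The dissected tissue included neural tube, and the source of the Sox2 transcripts was not tested.

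Some genes of arch and skeletal lists were lower in members than in Hox-negative mesenchyme: 2 of 5 tested skeletal and matrix genes, 1 of 2 distal arch genes, 1 of 4 proximal arch genes and 0 of 4 Dlx genes, with 0 higher in each list, beside the 0.431% of all genes lower. Barx1, a homeobox gene of arch mesenchyme, was at 88.3 and 109 CPM against 281 and 284. Sox9, the transcription factor of cartilage precursors, was at 57.4 and 50.7 CPM against 93.9 and 88.3, and Col3a1, a fibrillar collagen, at 25.2 and 23.0 against 57.6 and 47.7. Of 9 transcription factors of PA1, Lhx8 was the 1 tested against Hox-negative mesenchyme, with 5.48 and 12.1 CPM in members and 13.9 and 31.3 in those cells. Alx1 was the 1 tested against Hox3-positive mesenchyme, with 4.56 and 9.67 CPM in members and 27.7 and 20.7 in those cells. Each reached 20 CPM only in the comparison cells, where it was higher, so the minimum itself brought it into the count.

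Against Hox3-positive mesenchyme, 29 of 5121 genes (0.566%) were higher in members and 51 (0.996%) were lower. The rule fixed some of these differences, since the 51 include Hoxa3, Hoxb3 and Hoxd3 and the 29 include Hoxa2, which leaves 28 higher and 48 lower. The higher genes included the arch genes Dlx6 (42.8 and 41.8 CPM against 13.7 and 16.4), Dlx1 (43.5 and 50.3 against 24.7 and 31.3) and Barx1 (36.5 and 58.6 in Hox3-positive cells), together with Hopx, a homeodomain-only cofactor (143 and 98.5 against 65.8 and 47.3). Thus Barx1 lay between the populations in front of and behind the members. Tfap2b, an AP-2 transcription factor, was at 10.7 and 14.8 CPM against 55.1 and 48.2, and Kitl, the ligand of the receptor Kit, at 22.2 and 23.2 against 69.4 and 57.4. Dlx6 reached 20 CPM only in members and Tfap2b only in Hox3-positive cells. Each was higher there, so the minimum itself brought both into the count. Crabp2, which binds retinoic acid in the cytoplasm, was at 367 and 430 CPM against 614 and 725.

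Variation among the members was concentrated in a few genes. In cells thinned to 5000 UMIs, the excess variance over counting noise, as a multiple of the squared mean, had a median of 0.0382 in control and 0.0431 in null members over 2877 genes. It was 7.20 and 9.18 for Hes5, a target of Notch signalling, 6.22 and 6.59 for Fabp7, 10.7 and 5.77 for Cdkn1c, a cyclin-dependent kinase inhibitor, and 6.14 and 5.07 for Barx1. Hes5 had a mean of 0.301 and 0.263 UMIs per 5000. With Sox2 cells left out it was at only 1.80 and 2.22 CPM, so most of its UMIs, as for Fabp7, lay in Sox2 cells. Barx1 did not fall without them, at 102 and 128 CPM. Sox2 (3.30 and 3.45), Ckb (4.17 and 4.64) and Tubb2b (2.39 and 3.23) were also among the 15 most variable genes, as were Sfrp2 (3.09 and 3.22), a secreted Wnt antagonist, Sparc (3.17 and 2.45), a matrix protein, Loxl2 (7.99 and 3.29), a lysyl oxidase, the imprinted RNA H19 (1.81 and 3.66), Map1b (1.70 and 2.27), a microtubule-associated protein, Wdcp (1.86 and 2.35), 2810403D21Rik (2.50 and 3.03) and Msx1 (1.97 and 1.89), a homeobox gene that responds to BMP.

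The members divided along the proximal to distal axis. Those with 0 UMIs of Dlx5, Dlx6 and Hand2 were called proximal, those with Dlx5 or Dlx6 but no Hand2 middle, and those with Hand2 distal. In control members 51.0% were proximal (47.2 to 54.8), 23.9% middle (20.8 to 27.3) and 25.1% distal (21.9 to 28.5). In null members 45.8% were proximal (42.4 to 49.3), 29.7% middle (26.6 to 33.0) and 24.4% distal (21.5 to 27.5). In cells thinned to 5000 UMIs the proximal shares were 64.9% and 64.2% the middle shares 23.5% and 26.0%, and the distal shares 11.5% and 9.89%. With the rule applied to cells thinned to 10000 UMIs, the proximal shares were 59.4% and 55.1% and the middle shares 25.6% and 28.9%. Without the cells with the highest doublet scores, which were 26.7% of null middle members, 51.1% of control and 51.6% of null members were proximal, so the order of the libraries turned. Without Sox2 cells the proximal shares were 37.6% and 34.1%. In control Sox10 cells without mesenchymal UMIs, which should lack the distal genes, 1 of 121 held a Hand2 UMI (0.826%; 0.0209 to 4.52) and 0 held Dlx5 or Dlx6, which allows up to 3%. In the null library 0 of 56 such cells held Hand2 (0 to 6.38) and 2 held Dlx5 or Dlx6 (3.57%; 0.435 to 12.3).

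The divisions differed in genes that did not define them. Compared with proximal members, 55 of 5226 genes (1.05%) were at least 1.5-fold higher and 107 (2.05%) lower in middle members in both libraries, and 81 of 5245 (1.54%) were higher and 118 (2.25%) lower in distal members. These counts did not leave out Dlx5, Dlx6 and Hand2, whose difference from proximal members was fixed by the division. Barx1 was at 8.30 CPM in proximal, 142 in middle and 171 in distal control members, and at 11.9, 156 and 197 in null members. Bambi, a pseudoreceptor that dampens BMP signalling, was at 21.2, 22.4 and 134 CPM in control members, and Msx2, a homeobox gene that responds to BMP, at 38.7, 35.6 and 134, so both were concentrated distally. Sox2 ran the other way, at 89.3, 19.0 and 14.1 CPM in control and 79.8, 13.7 and 10.4 in null members. Hoxa2 (86.2, 94.0 and 78.8 CPM in control members) and Arid3b (49.1, 57.5 and 42.8) varied little along the axis.

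**Figure D2:**
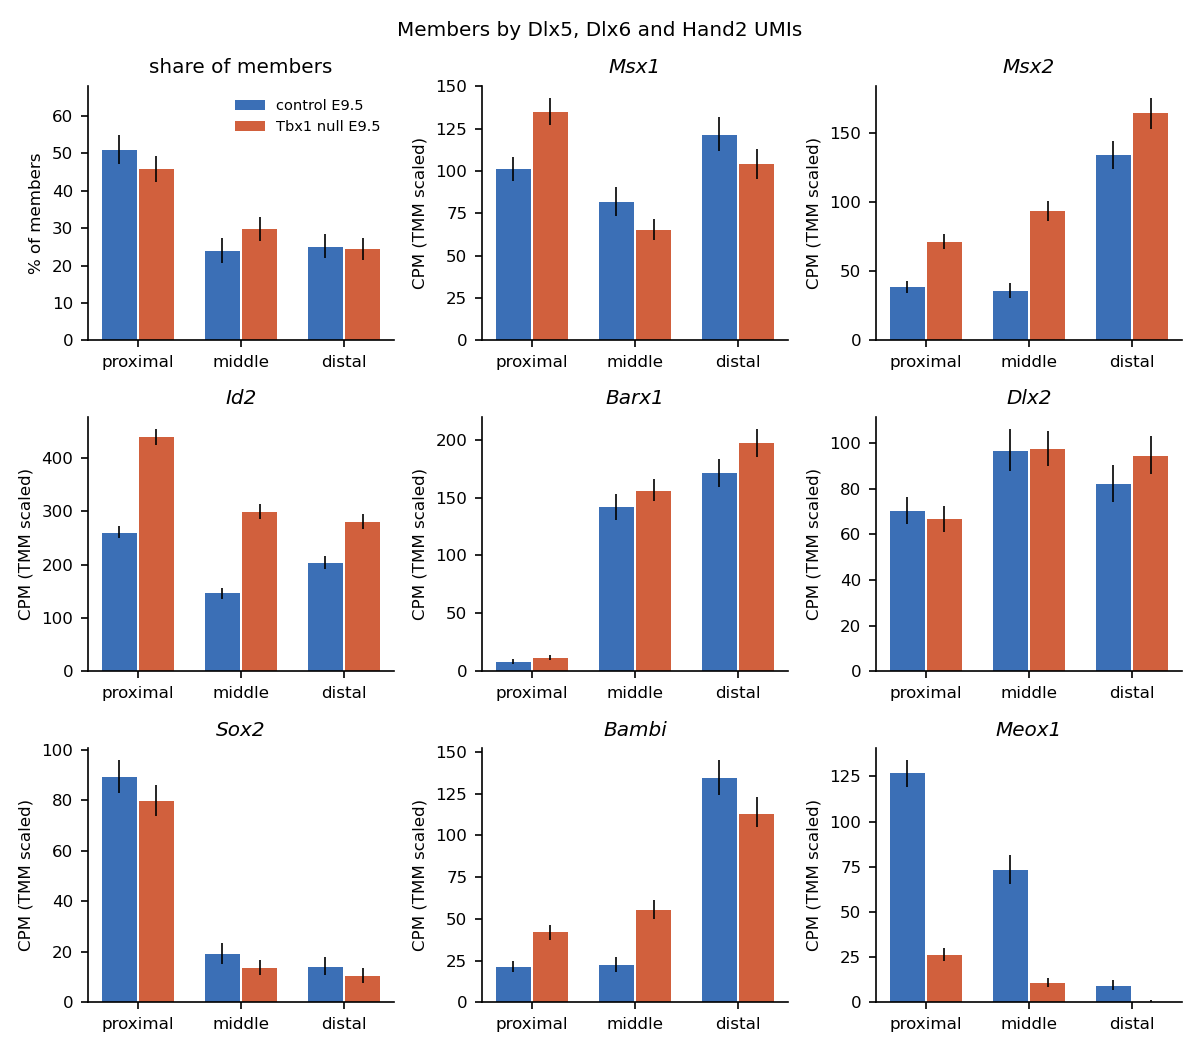
Share of members (percent) and CPM of 8 genes (y axes) in proximal, middle and distal members (x axis) of the control (blue) and Tbx1 null (orange) E9.5 libraries; black lines are 95% Clopper-Pearson or exact Poisson intervals. Barx1 was under 12 CPM in proximal members of both libraries, and Meox1 was lower in the null library in all 3 divisions.

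Between the libraries, 31 of 4986 genes (0.622%) were at least 1.5-fold higher in null members and 134 (2.69%) at least 1.5-fold lower, 165 in all (3.31%). In all other mesenchyme, 28 of 4976 genes (0.563%) were higher and 125 (2.51%) lower, so the members' shares were near those of the cells around them. For scale, the 2 control libraries at E10.5, of 1 genotype and 1 kit, differed 1.5-fold in 186 of 5230 genes (3.56%), and the 2 null libraries at E10.5, made with different kits, in 1663 of 5223 (31.8%), the null library with fewer members having 186. The share that differed at E9.5 was thus no larger than that between the control libraries of E10.5.

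Some of these genes also differed in all other mesenchyme. Rpl29, a ribosomal protein gene with many near-identical copies, was at 103 CPM in control and 492 in null members, a log2 ratio of 2.26, and of 2.23 in other mesenchyme. Gm42418, which overlaps ribosomal RNA, was at 362 and 1168 CPM (1.69, and 1.63 in other mesenchyme). Of 16 histone genes tested, 11 were lower in null members and 0 were higher, with a median log2 ratio of -0.86 against -0.83 in other mesenchyme. Hist1h2ap was at 1173 and 499 CPM. Histone genes also differed between the 2 E10.5 control libraries, with 32 of 35 higher in replicate 2 (median log2 ratio 2.01). Of 77 ribosomal protein genes, 2 were higher and 12 lower, against 3 higher and 11 lower in other mesenchyme. Of all genes tested in members, 0.622% were higher and 2.69% lower. Xist, the RNA of the inactive X chromosome, was at 0 CPM in control and 353 CPM in null members, and the Y-linked Ddx3y was at 19.7 and 10.6. The sex-linked genes thus also differed between the pools, and sex cannot be told apart from genotype here.

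Meox1, a homeobox transcription factor known from somites, had the largest fall among the genes named by size. It was at 81.3 CPM in control members (77.2 to 85.7) and 14.8 CPM in null members (13.1 to 16.5), a log2 ratio of -2.46. It was found in 37.5% of control and 14.5% of null members, and at 5000 UMIs per cell in 21.2% of 684 and 5.93% of 809. In Hox3-positive mesenchyme, where Meox1 was highest, it was at 228 and 98.4 CPM (log2 ratio -1.21), and in all other mesenchyme at 95.9 and 39.3 (-1.29). It was lower in the null library in each division of the members, at 127 and 26.4 CPM proximally, 73.4 and 10.8 in the middle and 9.29 and 0.377 distally. At E10.5 cells of the same rule had 3.92 and 4.27 CPM in control and 2.67 and 9.13 in null libraries, and these ranges overlapped.

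In the retinoic acid pathway, Crabp1, a further cytoplasmic retinoic acid binding protein, was at 2052 CPM in control and 1687 CPM in null members, and Crabp2 at 367 and 430 CPM, both under the threshold. Cyp26b1, too low for the count, had intervals of 4.08 to 6.25 and 10.7 to 13.8 CPM that did not overlap, while at E10.5 it was higher in the control libraries, at 5.31 and 4.73 CPM against 0.844 and 2.56.

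**Figure D3:**
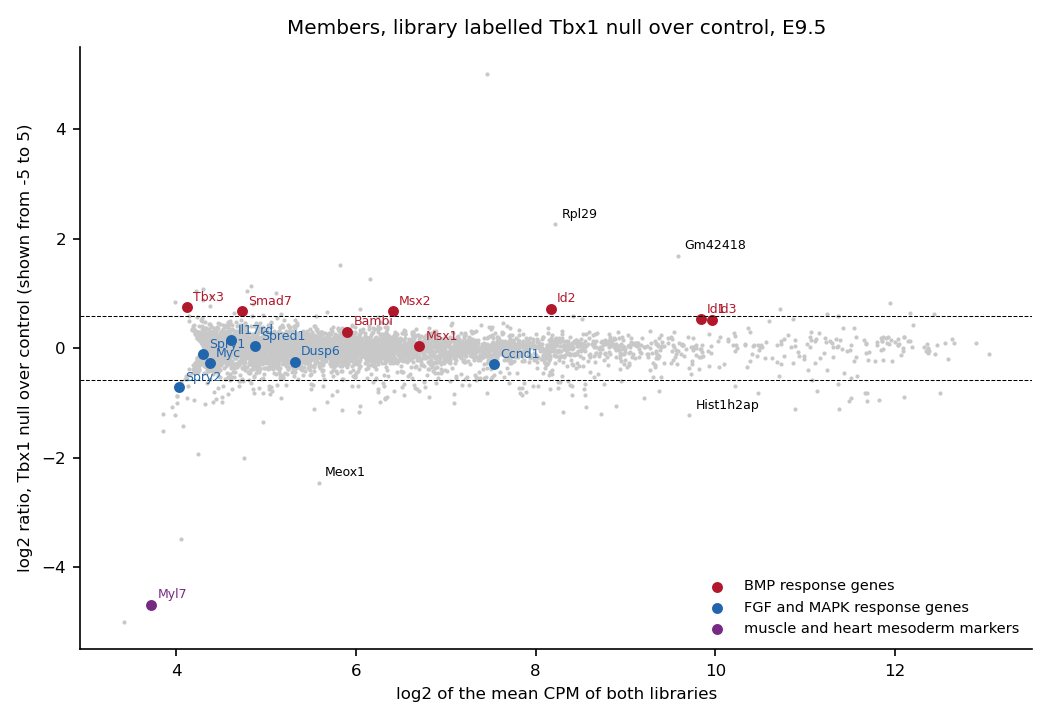
Log2 ratio of null over control members (y axis, values beyond 5 drawn at the edge) against the log2 mean CPM (x axis) for the 4986 genes tested, 1 grey point per gene; dashed lines mark 1.5-fold. BMP response genes (red) lay at or above 0, Meox1 lay at -2.46, and Myl7 (purple) at -4.69, with 93.7% of its control UMIs in 1 cell.

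Genes that respond to BMP, the bone morphogenetic proteins that pattern the distal arch, were higher or near equal in null members where tested. Of the 14 genes in the list, 8 were tested, 4 were at least 1.5-fold higher and 0 were lower, beside 0.622% of all genes higher, with a median log2 ratio of 0.60 against -0.01 for all genes. In cells thinned to 5000 UMIs 2 were higher. The study named 7 of the 14 from these same libraries, so the list is not independent evidence of its direction. Id2, an inhibitor of basic helix-loop-helix factors, was at 218 CPM in control members (211 to 225) and 358 CPM in null members (350 to 366). Msx2 was at 65.2 CPM (61.5 to 69.1) and 105 CPM (100 to 109), and was found in 45.9% of control and 67.7% of null members. The other 2 were Smad7, an inhibitor of BMP and TGF-beta receptors, at 20.4 and 32.6 CPM, and Tbx3, a T-box repressor, at 12.9 and 21.8 CPM. Tbx3 reached the 20 CPM needed to be tested only in the null library, where it was higher, so the minimum itself brought it into the count. With the minimum set on the mean of both libraries, which was chosen after seeing the data, 3 of 7 tested genes were higher and 0 lower with a median of 0.53, beside 0.523% of all genes higher and 2.45% lower.

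The relatives of Id2 lay just under the threshold. Id1 was at 749 and 1079 CPM, a log2 ratio of 0.53, and Id3 at 820 and 1174 CPM, a log2 ratio of 0.52. Bambi was at 53.7 and 66.2 CPM (0.30), and Msx1 at 103 and 106 CPM (0.04), so the list did not move as a whole. BMP ligands and receptors did not differ 1.5-fold in either direction: 4 of 13 were tested, with a median of 0.05. Among these the receptor gene Bmpr1a was at 31.1 and 31.6 CPM and Smad4, the common mediator, at 66.9 and 63.5 CPM.

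The log2 ratios of Msx2 and Bambi were larger in proximal (0.88 and 0.98) and middle than in distal members. In middle members 7 of 9 tested genes were higher and 0 lower, with a median of 0.94, where 1.80% of all genes were higher and 3.77% lower. In proximal members it was 5 of 7 and 0 lower with a median of 0.70 (0.969% of all genes higher, 3.82% lower), and in distal members 2 higher and 1 lower of 10 with a median of 0.30 (1.14% of all genes higher, 3.03% lower). Some of these genes reached 20 CPM only in the null library, Smad7 in proximal members, Smad7, Tbx2 and Tbx3 in middle members and Tbx2 and Tbx3, the 2 higher genes, in distal members. With the minimum on the mean of both libraries, 6 of 8 were higher in middle members with a median of 0.86 (1.44% of all genes higher), 5 of 7 in proximal members (0.739%), and in distal members 2 higher and 1 lower of 10 (0.758% of all genes higher, 2.59% lower). Msx2 was at 35.6 CPM in control and 93.7 CPM in null middle members, a log2 ratio of 1.39, and at 134 and 164 CPM in distal members, a ratio of 0.29. Bambi was at 22.4 and 55.5 CPM in middle members and at 134 and 113 CPM in distal members, with ratios of opposite sign, 1.31 and -0.24. The difference between the divisions was not tested, and top doublet scores were in 26.7% of null middle and 25.5% of null distal members but 11.6% of each in control.

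Some BMP response genes also differed in other cells. In all other mesenchyme 2 of 9 tested genes were higher, with a median of 0.53, beside the 0.563% of all genes higher there, and with the minimum on the mean of both libraries 1 of 8 (0.478% of all genes). In Hox3-positive mesenchyme 1 was higher and 1 lower with a median of 0.24, where 0.482% of all genes were higher and 3.27% lower. In neural cells 0 of 6 differed with a median of 0.12, where 0.442% of all genes were higher and 2.63% lower. With Sox2 cells left out, 7 of 10 tested genes were higher in null members (Id1, Id2, Id3, Msx2, Smad7, Tbx2 and Tbx3), with a median of 0.65, where 0.868% of all genes were higher and 2.93% lower. Smad7, Tbx2 and Tbx3 then reached 20 CPM only in the null library, and with the minimum on the mean of both libraries 5 of 8 tested genes were higher with a median of 0.63 (0.609% of all genes higher). At E10.5 in cells of the same rule, Id2 was at 165 and 166 CPM in the controls and 270 and 308 CPM in the null libraries, and Msx2 at 14.0 and 10.0 CPM and 39.4 and 23.5 CPM, so neither overlapped between genotypes. For scale, both null libraries lay above both controls at least 1.5-fold in 69 of 5625 genes at E10.5 (1.23%) and below in 150 (2.67%). Id1 was at 196 and 156 against 462 and 308 CPM, and Id3 at 377 and 292 against 755 and 617. Smad7 was at 30.1 and 34.2 CPM in the controls and 24.3 and 43.9 CPM in the null libraries, which overlapped, and Tbx3 at 4.00 and 6.56 against 15.9 and 11.4. The E10.5 cells also differed in make-up, with Sox2 UMIs in 7.37% and 2.35% of control and 20.1% and 30.1% of null cells. How far this make-up entered the values at E10.5 was not tested.

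**Figure D4:**
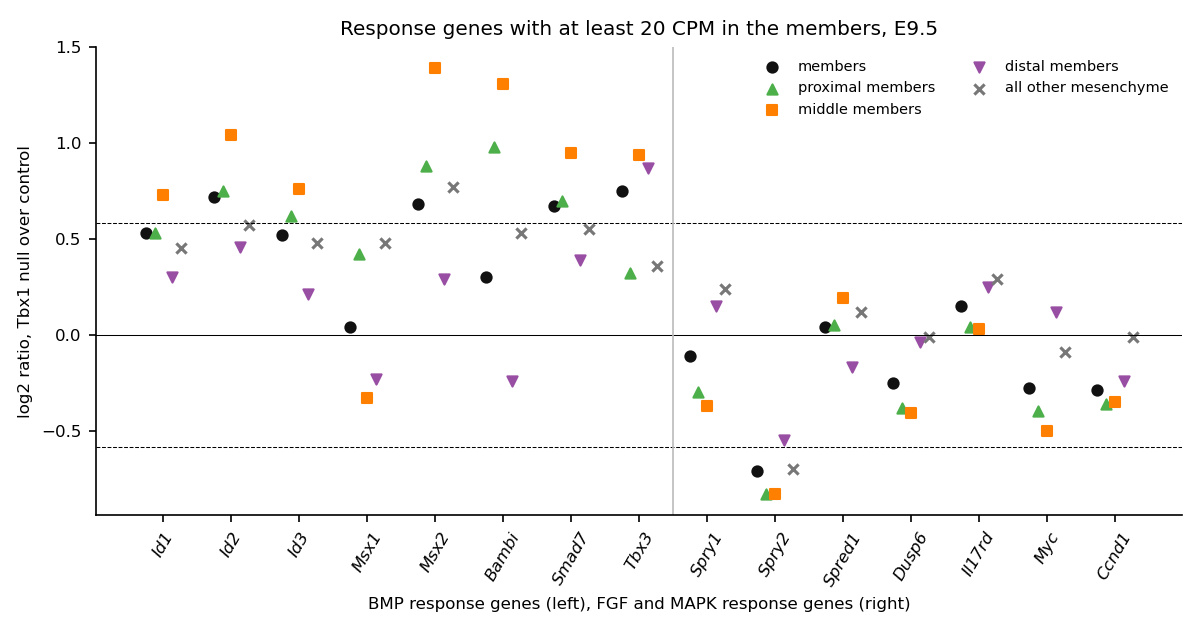
Log2 ratio of null over control (y axis) for the 8 BMP response genes (left) and 7 FGF and MAPK response genes (right) with at least 20 CPM in members, in members, their proximal, middle and distal divisions and all other mesenchyme (symbols); dashed lines mark 1.5-fold. Middle members had the highest ratio for Msx2 (1.39) and Bambi (1.31), and Spry2 was below 0 in all 5 groups.

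The sequences just before the start sites of Id2, Id3 and Msx2 are shown because Id2 and Msx2 were at least 1.5-fold higher in null members, with Id3 just under that threshold, and because they respond directly to BMP through SMAD proteins, whose known binding motifs are GGCGCC for SMAD1 and SMAD5 and CAGAC for SMAD3 and SMAD4. Each is the 250 bases before the RefSeq start site (build GRCm38.p6), 5′ to 3′ on the gene's strand, at chr12:25096093-25096342 (Id2, minus strand), chr4:136143572-136143821 (Id3, plus strand) and chr13:53472781-53473030 (Msx2, minus strand). Capitals mark matches to either motif on either strand.
Id2: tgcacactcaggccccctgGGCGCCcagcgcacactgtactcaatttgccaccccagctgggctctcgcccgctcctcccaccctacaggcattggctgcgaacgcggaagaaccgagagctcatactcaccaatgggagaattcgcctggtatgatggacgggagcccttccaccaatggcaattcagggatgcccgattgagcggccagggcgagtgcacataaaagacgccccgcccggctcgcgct
Id3: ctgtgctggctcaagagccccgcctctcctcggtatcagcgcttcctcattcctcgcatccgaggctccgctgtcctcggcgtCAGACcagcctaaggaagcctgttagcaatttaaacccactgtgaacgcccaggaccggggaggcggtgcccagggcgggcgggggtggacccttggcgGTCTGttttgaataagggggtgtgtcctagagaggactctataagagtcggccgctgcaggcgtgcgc
Msx2: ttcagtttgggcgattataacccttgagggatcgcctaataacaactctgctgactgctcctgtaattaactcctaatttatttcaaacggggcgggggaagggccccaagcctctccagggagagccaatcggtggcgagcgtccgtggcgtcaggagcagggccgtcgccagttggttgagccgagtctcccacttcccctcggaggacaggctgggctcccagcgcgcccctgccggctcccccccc
Id2 held 1 match to GGCGCC, Id3 held 2 to CAGAC and Msx2 held neither. Of 32851 mouse promoter windows of this length, 9.59% held GGCGCC and 42.2% CAGAC, so matches are common, and no binding was measured here.

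FGF and MAPK response genes, which report growth factor signalling from the arch epithelium, were mostly under the threshold. Of 16 genes 7 were tested, 0 were higher and 1 was lower in null members, with a median of -0.25, beside 2.69% of all genes lower. The study named 6 of the 16 from these libraries, so the list is not independent evidence, and in cells thinned to 5000 UMIs 0 were lower. The lower gene was Spry2, an inhibitor of receptor tyrosine kinase signalling, at 20.3 CPM (18.3 to 22.5) and 12.4 CPM (10.9 to 14.1), a log2 ratio of -0.71, and -0.70 in all other mesenchyme. It reached 20 CPM only in the control library, where it was higher, and with the minimum on the mean of both libraries 0 of 5 tested genes were lower. At E10.5 Spry2 was at 6.84 and 6.43 CPM in the control and 7.51 and 5.12 in the null libraries. Dusp6, a phosphatase that acts on ERK, was at 43.5 and 36.5 CPM, Ccnd1, cyclin D1, at 205 and 167 CPM, and Myc at 22.8 and 18.7 CPM, all under the threshold. Dusp9, a further MAPK phosphatase that was not on the list, was higher in null members, at 50.2 CPM (47.0 to 53.7) and 82.3 CPM (78.3 to 86.4), a log2 ratio of 0.71. Its ratio was 1.10 in proximal, 1.04 in middle and 0.10 in distal members, and 0.61 in all other mesenchyme. At E10.5 Dusp9 was at 74.7 and 69.3 CPM in the control and 184 and 87.9 CPM in the null libraries. FGF ligands and receptors had 1 of 9 genes tested, Fgfr1, at 31.4 and 37.7 CPM.

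Dlx genes, Hox cofactors and Hoxb2 were near equal in the libraries, unlike Meox1 and Cyp26b1. The 4 tested of 6 Dlx genes had 0 differences in either direction and a median of 0.07, with Dlx2 at 81.0 and 85.2 CPM. Of 9 Hox cofactors 5 were tested and 0 differed, with a median of -0.01, and Hoxb2 was at 83.4 and 82.7 CPM. Of the distal genes Hand2 was at 33.2 and 26.2 CPM. Nr2f1, an orphan nuclear receptor of the cranial NCCs, was at 288 and 325 CPM. Among 14 S phase genes 1 was lower in null members (Ccne2, cyclin E2, at 28.5 and 14.9 CPM; log2 ratio -0.89 in all other mesenchyme), and of 14 genes of G2 and M phase 0 differed, with a median of 0.24. Of 20 glycolysis and hypoxia genes 14 were tested and 1 was lower, Hk2, a hexokinase, at 69.9 and 40.6 CPM, with a ratio of -0.78 and of -0.73 in all other mesenchyme. Hedgehog, Notch, Wnt, endothelin, guidance and skeletal genes had 0 genes at 1.5-fold in either direction among 4, 2, 2, 3, 6 and 4 tested. Beside all these lists, 0.622% of all genes were higher and 2.69% lower in null members.

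Differences in cardiac muscle genes rested on 1 cell. Myl7, an atrial myosin light chain, was at 25.4 CPM in control and 0.957 CPM in null members, but 1 of the 686 control members held 93.7% of its 446 UMIs, 100% of the Nppa UMIs and 98.2% of those of Tnnt2, all genes of cardiac muscle. This cell was a proximal member, and it also held 70.8% of the Acta2 and 5.10% of the Tagln UMIs of all control members. Of 7 smooth muscle markers 2 were tested and 1 was lower, beside 2.69% of all genes lower. This was Myl9, at 30.3 and 15.3 CPM, which reached 20 CPM only in the control library. Its control UMIs lay in 224 of the 686 members, and the same cell held 11.1% of them. In proximal members 3 of the 3 smooth muscle markers tested were lower, with a median of -1.35, beside the 3.82% of all genes lower there. These 3, Acta2, Tagln and Myl9, reached 20 CPM only in the control library, and with the minimum on the mean of both libraries 2 of 2 were lower (3.38% of all genes). Acta2 was at 29.5 and 1.44 CPM in proximal members, with UMIs in 4 of 350 control cells, and at 6.77 CPM in the control without the cell that held Nppa. With that cell left out, an alternative chosen after seeing the data, Acta2 was below the minimum, and 2 of 2 tested markers were lower in proximal members, Tagln (27.1 and 11.9 CPM) and Myl9 (33.3 and 17.3 CPM), and 1 of 2 in all members. In proximal members Tagln and Myl9 then still reached 20 CPM only in the control library, and the share of all genes was not recounted. Proximal control Tagln UMIs lay in 26 of 350 cells, with 24.1% of them in 1 other cell, and those of Myl9 in 122. In distal members 0 of 2 were lower, with a median of -0.08, and Tagln was at 45.9 and 55.4 CPM there. The list summed to 81.6 CPM in control and 45.2 in null members.

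At E10.5 the same rule found 1126 and 2637 cells in the control libraries, 29.9% and 34.6% of their mesenchyme, and 623 and 186 cells in the null libraries, 17.1% and 7.44%. With the rule applied to cells thinned to 5000 UMIs, these shares were 19.8% and 20.9% in the controls and 20.9% and 13.6% in the null libraries, so the genotypes overlapped at equal depth. Middle cells were 48.0% and 43.6% of those in the controls and 6.42% and 2.69% in the null libraries, while proximal cells were 23.3% and 27.2% against 59.4% and 64.0%. Neither of these division shares overlapped between genotypes, also with the rule at 5000 UMIs, where middle cells were 34.1% and 23.8% against 12.0% and 1.03% and proximal cells 47.7% and 54.1% against 65.6% and 74.9%. No test was run on 2 libraries against 2. At E9.5, in contrast, the null library had the higher share of middle members.

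**Figure D5:**
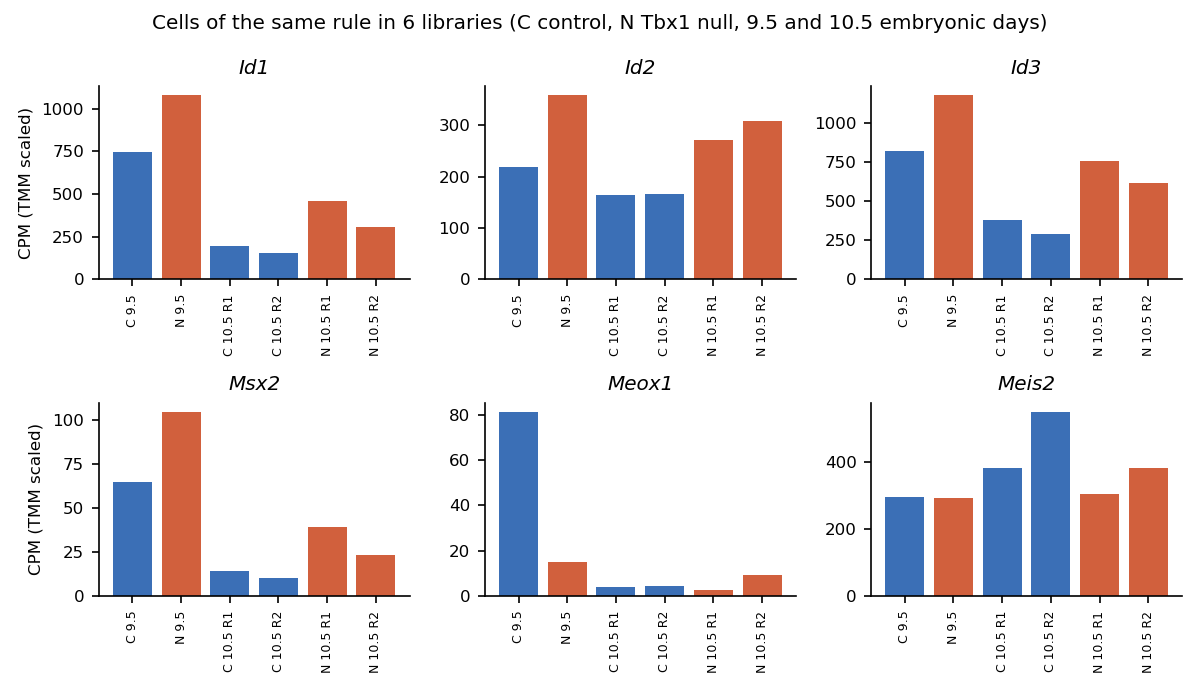
CPM (y axes) of 6 genes in cells of the same rule in 6 libraries (x axis; C control, blue; N Tbx1 null, orange; R1 and R2 replicates at E10.5); each bar is 1 library. Id1, Id2, Id3 and Msx2 were higher in null than in control libraries at both ages, and Meox1 was over 14 CPM only at E9.5.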

How the data were processed

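UMI counts per gene and cell were deposited by the authors without normalization, for the barcodes that Cell Ranger 6.0.1 called as cells against mm10, per the labels and the submitters' processing notes. The members and gene lists were chosen with earlier results of these data known. For each library, UMIs were summed over the cells of a population. CPM was computed with TMM factors (edgeR 4.0.16, R 4.3.3), and log2 ratios with a pseudocount of 0.5 UMIs. A gene was tested where its CPM reached 20 in either of the sums compared, and counted at 1.5-fold. With 1 library per genotype at E9.5, no test was made, and intervals (exact Poisson, Clopper-Pearson, 95%) cover counting error only. Genes were named if they were on 1 of the lists, among the 10 largest rises or falls of a comparison with at least 50 CPM (rule, mitochondrial, haemoglobin and sex-linked genes left out), or among the 15 with the largest excess variance in cells thinned to 5000 UMIs. Nppa was named after its values were seen. Some genes within this rule are not reported here. Doublets were scored with Scrublet in scanpy 1.11.5 and kept, and removed in an alternative at 0.8% of barcodes per 1000 barcodes. Alternatives also changed scaling, filters, pseudocount, depth and the rule. The ratio and counting steps were tested on simulated sums, and the excess variance on simulated counts. The library of E8.5 was not used here.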

Additional observations from a re-analysis of the deposited data

Results flagged for a closer look

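Gm42418 and AY036118, both overlapping ribosomal RNA, differed in opposite directions at the 2 ages. In E9.5 members their log2 ratios of null over control were 1.69 and 1.51. At E10.5 Gm42418 was at 2077 and 3732 CPM in the control and 132 and 302 CPM in the null libraries, and AY036118 was at 109 and 83.8 against 5.16 and 10.7 CPM. The difference between the ages was not tested.

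Myl7 had a log2 ratio of -4.69 in members and of 1.33 in all other mesenchyme, a difference that was not tested. In control members 1 cell held 418 of 446 Myl7 UMIs.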

How the results depend on the processing

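Of 146 comparisons of 16 counts and shares with their alternatives, 105 stayed within 1.5 times of the count or within the interval of the share and 41 moved. No paired analysis was possible because there was 1 library per genotype at E9.5 and the results come from no test. Among 40 named genes, 502 of 520 comparisons stayed on the same side of the 1.5-fold threshold, 3 fell below it and 15 rose past it. Of ratios that reached 1.5-fold in the main setting, 0 changed sign. Sign changes of smaller ratios were not counted, and that of Msx1 did change sign, to -0.11 without Sox2 cells.

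Counting every gene with at least 5 UMIs gave 1260 genes higher and 1150 lower in null members (52.3% of differences higher, against 18.8%), 5 FGF and MAPK response genes lower, 863 higher and 436 lower than in Hox-negative mesenchyme, and 352 higher and 805 lower than in Hox3-positive mesenchyme. At E10.5 it gave 2926 genes that differed between the 2 control libraries and 5288 between the 2 null libraries. Thinning cells to 5000 UMIs gave 85 genes higher in null members (36.3% of differences), 2 BMP response genes higher, 0 FGF and MAPK response genes lower, Hand2 shares of 11.5% and 9.89% (control, null) and proximal shares of 64.9% and 64.2%. With the minimum on the mean of both libraries, also chosen after seeing the data, 0 FGF and MAPK response genes were lower. Without top Scrublet scores the null proximal share was 51.6%. With at least 2 Hoxa2 UMIs, members were 6.53% and 5.92% of mesenchyme, 46.0% and 38.2% were proximal, and 90 genes were lower than in Hox3-positive mesenchyme. With at least 5 mesenchymal UMIs, 26 genes were higher than in Hox-negative mesenchyme, Hand2 shares were 29.9% and 28.7% and proximal shares 41.8% and 36.5%. Without Sox2 cells, an alternative chosen after seeing the data, 7 BMP response genes were higher in null members, 22 genes were higher than in Hox-negative and 33 lower than in Hox3-positive mesenchyme, members were 9.55% and 8.94% of mesenchyme, Hand2 shares were 33.6% and 30.2% and proximal shares 37.6% and 34.1%. The rule applied at 5000 UMIs gave member shares of 6.42% and 6.59%, and at 10000 UMIs 10.1% and 9.41%. The causes were not tested. Thinning members chosen at full depth leaves their share of mesenchyme as it is and was not run. Depth limits genes under 20 CPM.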

Other observations

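Some arch genes were higher in cells of the same rule in the E10.5 control libraries than in E9.5 members, and lower in both E10.5 null libraries than in both controls. Emx2, a homeobox gene, was at 0.0570 and 0.101 CPM at E9.5, at 53.5 and 74.2 CPM in the E10.5 controls and at 0.422 and 0.320 CPM in the E10.5 null libraries. Gsc, the goosecoid homeobox gene, was at 1.20 and 1.96 CPM at E9.5, 50.4 and 47.4 in the E10.5 controls and 11.9 and 15.7 in the E10.5 null libraries. Dlx3 followed the same order, at 6.45 and 6.60, 33.1 and 32.1, and 10.0 and 0.961 CPM. For scale, both E10.5 null libraries lay below both controls at least 1.5-fold in 150 of 5625 genes (2.67%). Middle cells were 48.0% and 43.6% of the E10.5 control cells and 6.42% and 2.69% of the null cells. Whether these genes differed within a division was not tested.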
